A study of Mus musculus with 12 samples.

Results

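The PDZ-LIM proteins and a group of Z-disc signaling proteins were followed through their mRNAs in mouse satellite cells, the muscle stem cells that carry the transcription factor Pax7. The genes are *Pdlim1*, *Pdlim2*, *Pdlim3*, *Pdlim4*, *Pdlim5*, *Pdlim7*, *Ldb3*, *Xirp1*, *Csrp3* and *Ankrd1*, 10 of the 55401 genes counted. They were chosen by name, as proteins of the Z-disc and its actin anchors, at a time when the measured difference between activated *Cxcr4* KO and WT libraries was known, and that difference stood behind the choice. The values of that contrast are therefore described and not tested for these genes. Satellite cells lacking the chemokine receptor gene *Cxcr4* were compared with cells that kept it, both freshly sorted and after a night in culture. All mice were *Cxcr4* FL/FL and carried the *Pax7*-ZsGreen reporter, and all received tamoxifen at 80 mg/kg on 5 days. KO mice carried *Pax7*-creERT2 as well, so that the deletion was limited to *Pax7*-expressing cells, and WT mice carried no cre. The reporter-positive cells of the hind limbs were sorted and either lysed directly, giving 4 WT and 4 KO quiescent libraries, or cultured overnight, giving 2 WT and 2 KO activated libraries. The methods give adult mice of 3 to 4 months and count sample sizes in independent mice. The labels do not tie each library to a mouse of its own, so p-values measure the spread between these libraries, part of which may be technical.

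The sarcomere of striated muscle is bounded by Z-discs, where alpha-actinin cross-links the barbed ends of actin filaments. PDZ-LIM proteins bind alpha-actinin or related proteins through a PDZ domain and recruit kinases and other partners through LIM domains. The ALP subfamily, *Pdlim1* (Elfin), *Pdlim2* (Mystique), *Pdlim3* (ALP) and *Pdlim4* (RIL), has a single LIM domain, and the Enigma subfamily, *Pdlim5* (ENH), *Pdlim7* (Enigma) and *Ldb3* (Cypher or ZASP), has several. *Ldb3* and *Pdlim3* are best known from striated muscle, whereas *Pdlim1*, *Pdlim4* and *Pdlim7* are also found on actin stress fibres of cells that have no sarcomeres. *Xirp1* encodes Xin, an actin-binding repeat protein of damaged and remodelling muscle, *Csrp3* encodes muscle LIM protein, and *Ankrd1* encodes CARP, a titin-binding ankyrin repeat protein that responds to stretch and is a known target of the YAP and TEAD transcription regulators. Satellite cells build no sarcomeres until they differentiate and fuse.

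Start regions are shown for 4 genes that behaved differently in culture: *Pdlim3* and *Ldb3*, which were higher in both genotypes, *Pdlim4*, which was lower in both, and *Csrp3*, a gene of low counts that did not pass in WT cells. Each is a stretch of 200 bases outside all annotated exons, read 5′ to 3′ on the strand of the gene from the RefSeq start regions on GRCm38.p6, at chr8:45885261-45885460 on the plus strand for *Pdlim3* and on the minus strand at chr14:34588683-34588882 for *Ldb3*, chr7:48848052-48848251 for *Csrp3* and chr11:54069018-54069217 for *Pdlim4*. Capitals mark matches to the motifs searched, which were the TEAD site CATTCC, the E-box CANNTG, the CArG box and the MEF2 site, on both strands.
Pdlim3: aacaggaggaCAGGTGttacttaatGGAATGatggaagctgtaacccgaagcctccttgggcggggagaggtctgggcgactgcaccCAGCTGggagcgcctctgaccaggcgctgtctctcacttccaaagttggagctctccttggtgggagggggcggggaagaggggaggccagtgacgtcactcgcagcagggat
Ldb3: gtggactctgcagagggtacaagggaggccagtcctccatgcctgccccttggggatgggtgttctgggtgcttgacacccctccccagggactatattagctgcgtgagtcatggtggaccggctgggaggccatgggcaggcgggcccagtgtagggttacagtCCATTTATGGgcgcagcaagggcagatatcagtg
Csrp3: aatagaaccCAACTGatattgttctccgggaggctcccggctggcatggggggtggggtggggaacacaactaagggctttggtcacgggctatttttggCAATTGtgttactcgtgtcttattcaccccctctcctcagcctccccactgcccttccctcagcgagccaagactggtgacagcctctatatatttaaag
Pdlim4: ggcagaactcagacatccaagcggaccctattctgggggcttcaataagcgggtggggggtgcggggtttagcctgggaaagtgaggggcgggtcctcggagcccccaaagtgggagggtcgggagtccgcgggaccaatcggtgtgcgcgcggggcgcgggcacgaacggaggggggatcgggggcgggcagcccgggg
In the *Pdlim3* stretch the capitals are an E-box, a TEAD site and another E-box. The run in *Ldb3* is a CArG box, and the runs in *Csrp3* are E-boxes, while the *Pdlim4* stretch held none of these motifs.

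RefSeq start regions were matched for 8 of the 10 genes, in 11 windows of 300 bases, 250 before and 50 after the start. *Pdlim3* held TEAD sites at -201 and -11 and E-boxes at -216 and -139, counted from the start. *Ankrd1*, whose window lies in annotated exons, held TEAD sites at -210 and -123 and an E-box at -111. Among all 32851 windows, 14.7% held a TEAD site, 72.3% an E-box, 1.63% a CArG box and 3.19% a MEF2 site. The CArG box of *Ldb3* stood at -35 and was seen again from the overlapping second window, at -109. The first *Csrp3* window held 5 E-boxes and the second 4, the first *Pdlim5* window held 1, and the windows of *Pdlim1*, *Pdlim4* and *Pdlim7* held no match to any of the 4 motifs. A match describes letters and shows no binding.

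On GRCm38, *Pdlim1* (ENSMUSG00000055044) lies on chromosome 19 from 40221173 to 40271842 and *Pdlim3* (ENSMUSG00000031636) on chromosome 8 from 45885461 to 45919548. *Pdlim4* (ENSMUSG00000020388) lies on chromosome 11 from 54054928 to 54069014, *Pdlim5* (ENSMUSG00000028273) on chromosome 3 from 142239590 to 142395696, and *Pdlim7* (ENSMUSG00000021493) on chromosome 13 from 55495795 to 55513676. *Pdlim2* (ENSMUSG00000022090; 70164218 to 70177681) and *Ldb3* (ENSMUSG00000021798; 34526603 to 34588682) share chromosome 14. *Ankrd1* (ENSMUSG00000024803; 36111961 to 36120099) is on chromosome 19 with *Pdlim1*, *Xirp1* (ENSMUSG00000079243; 120013755 to 120023598) is on chromosome 9, and *Csrp3* (ENSMUSG00000030470; 48830398 to 48848033) is on chromosome 7. Of the 10, *Pdlim7* alone shares exon bases with another annotated gene, 1.4% of them with *Mir6945*.

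The libraries held 12775593 to 23717013 counts in the quiescent groups and 3172164 to 5427280 in the activated groups, so low genes were measured less precisely after culture. The target gene *Cxcr4* was lower in every KO library than in every WT library of its state, with log2 fold changes of -2.24 in quiescent and -1.35 in activated cells. The adjusted p by edgeR's quasi-likelihood test was 0.00477 in quiescent cells and 0.381 in activated cells (SE 0.46). In activated cells, with 2 libraries a genotype, 9.5% of all genes tested were likewise lower in KO without overlap. All 8 satellite cell markers were detected in each group, at a summed level of 1556 to 5088 CPM (reads of a gene relative to the TMM-scaled size of its library). *Myod1* was the highest of the 8, with group means of 1517 to 1942 CPM, and *Calcr* was at 0 in KO activated replicate 1. *Pax7* had means of 392 CPM in WT and 247 CPM in KO quiescent cells, without overlap, as had 1.7% of all genes in either direction. Its log2 fold change was -0.67 (SE 0.23; unadjusted p = 0.00987 by edgeR, not significant after adjustment). State was not the only thing that set the activated libraries apart. Quiescent libraries carried Y-linked mRNA and activated libraries carried *Xist*, a single ribosomal RNA gene took 11.5% to 40.3% of the counts in activated and 0.295% to 0.807% in quiescent libraries, and the 12 markers of mature muscle fibre summed to 326 to 1102 CPM in quiescent and 7863 to 19021 CPM in activated libraries. The effects of culture, of the sex of the donors and of depth on the activation comparisons cannot be told apart.

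**Figure D1:**
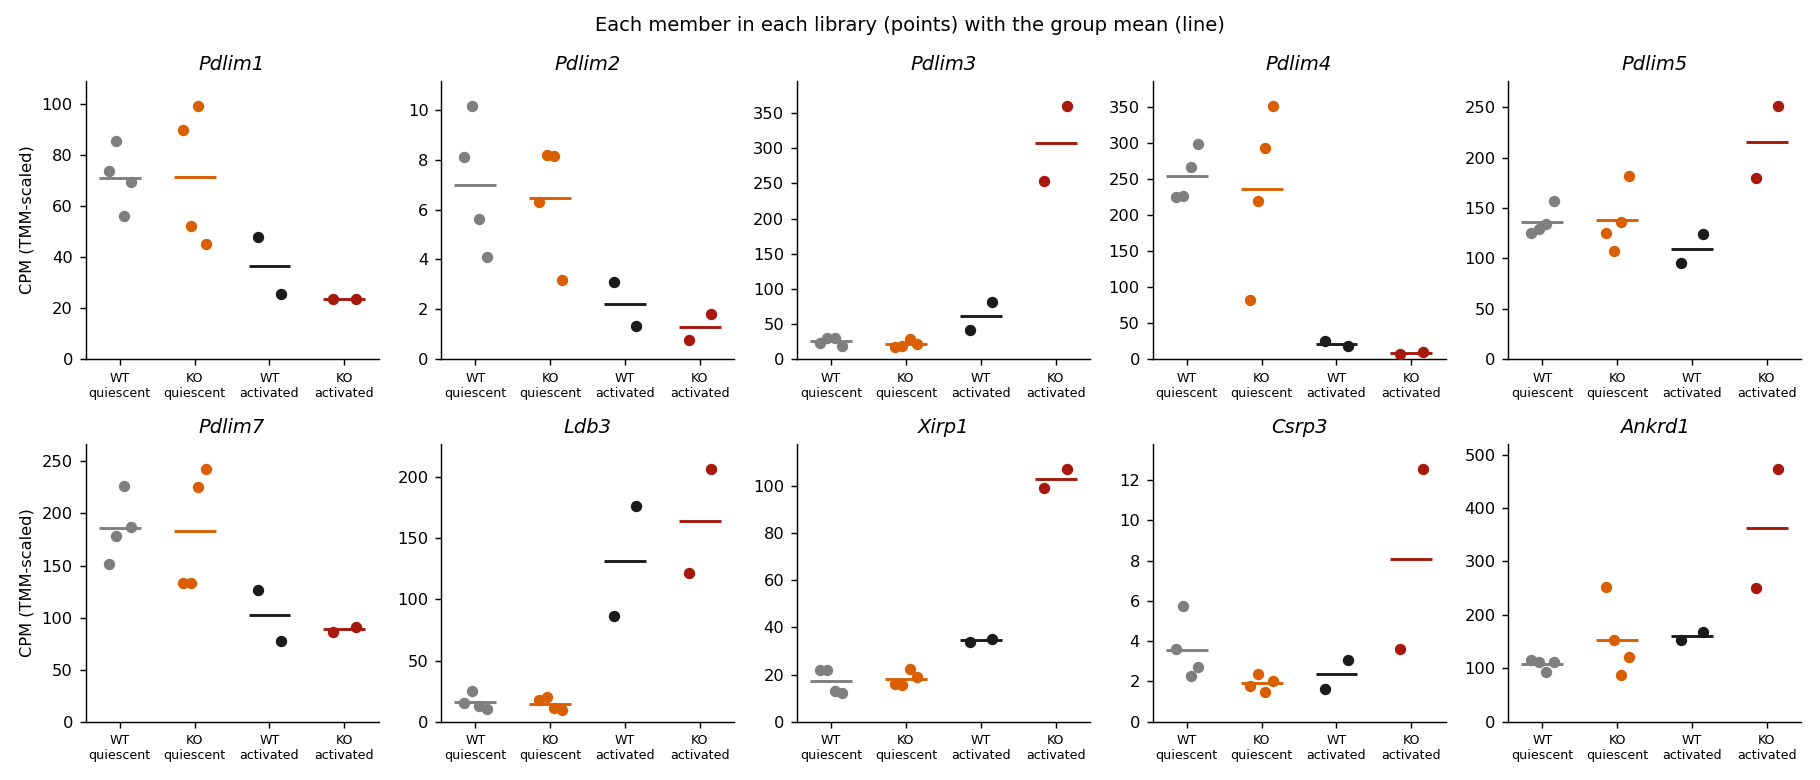
Each panel plots 1 gene, with the level in CPM (linear axis from 0) by group, a point for each of the 12 libraries and a line at the group mean. The 8 quiescent libraries of WT and KO overlap in every panel, and *Pdlim3* and *Xirp1* stand highest in the 2 KO activated libraries.

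To ask whether loss of *Cxcr4* changed these mRNAs in freshly sorted cells, the 4 KO libraries were compared with the 4 WT libraries. Quiescent KO and WT cells carried all 10 mRNAs at overlapping levels. Of the 10 genes, 0 passed the test (edgeR's quasi-likelihood test; adjusted p under 0.05, log2 fold change beyond 1 and mean count over 10), and 0 had an unadjusted p under 0.05. DESeq2 called 0 of them as well. Over all 25771 genes tested 0.0155% passed, and 1.7% did not overlap between the groups in either direction. The log2 fold changes of the 10 genes ran from -0.90 to 0.50, with a median of -0.06 against 0.02 over all genes. A change smaller than the spread of these libraries was not detectable.

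Within the ALP subfamily, *Pdlim4* was the most abundant in quiescent cells, at 224, 226, 266 and 298 CPM in the WT libraries and 82.4, 219, 292 and 350 CPM in the KO libraries. KO replicate 1 lay far below the others, the remaining 7 libraries lay between 219 and 350 CPM, and the log2 fold change was -0.10 (SE 0.30). *Pdlim1* had 74.0, 85.5, 56.1 and 69.5 CPM in WT and 89.7, 52.4, 99.2 and 45.0 CPM in KO libraries. The KO libraries spread to both sides of the WT libraries, with a log2 fold change of 0.01 (SE 0.26). *Pdlim3*, the alpha-actinin-associated LIM protein of muscle, had 22.7, 29.4, 30.1 and 19.2 CPM in WT and 17.2, 18.7, 28.6 and 21.2 CPM in KO libraries, a log2 fold change of -0.24 (SE 0.25). *Pdlim2* was low throughout, with 8.09, 10.1, 5.61 and 4.09 CPM in WT and 6.31, 8.20, 8.14 and 3.16 CPM in KO libraries. The genotypes were not separated by any of these 4 genes.

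The Enigma subfamily showed the same overlap. *Pdlim7* had 152, 178, 226 and 187 CPM in WT and 133, 133, 226 and 243 CPM in KO libraries. *Pdlim5*, a scaffold for protein kinases C, had 125, 129, 134 and 157 CPM in WT and 125, 107, 136 and 182 CPM in KO libraries. *Ldb3* stood at 15.6, 25.3, 12.5 and 10.2 CPM in WT and 17.8, 19.8, 11.5 and 9.77 CPM in KO libraries. The log2 fold changes were -0.02 (SE 0.24) for *Pdlim7*, 0.01 (SE 0.21) for *Pdlim5* and -0.11 (SE 0.31) for *Ldb3*.

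Among the other Z-disc signaling genes, the stretch-responsive *Ankrd1* had 115, 112, 93.3 and 112 CPM in WT and 252, 152, 86.9 and 121 CPM in KO libraries. Its KO libraries spread over a range that included the WT libraries, and KO replicate 1 was the highest, the same library in which *Pdlim4* was lowest. The log2 fold change of *Ankrd1* was 0.50 (SE 0.27; unadjusted p = 0.0838, adjusted p = 1 by edgeR), and it was 0.15 without that library. *Csrp3* had 3.60, 5.75, 2.28 and 2.697 CPM in WT and 1.77, 2.39, 1.45 and 2.03 CPM in KO libraries. The KO levels were mostly under the WT levels with 1 overlapping library, and the log2 fold change was -0.90 (SE 0.46; unadjusted p = 0.0653, adjusted p = 1 by edgeR). *Xirp1* had 21.9, 22.0, 13.03 and 12.3 CPM in WT and 15.9, 15.6, 22.6 and 19.2 CPM in KO libraries, a log2 fold change of 0.08 (SE 0.23).

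Levels were set against each other per kilobase of exon (RPKM), since the exon lengths of these genes differ. In WT quiescent cells *Pdlim4* stood first, at 99.1 ± 13.9 RPKM (SD, n = 4), with *Pdlim7* at 38.3 ± 6.35 and *Ankrd1* at 37.5 ± 3.49 next. *Pdlim5* and *Pdlim1* followed at 15.4 ± 1.62 and 13.5 ± 2.31 RPKM, then *Pdlim3* at 4.93 ± 1.03, *Xirp1* at 2.97 ± 0.919, *Ldb3* at 2.60 ± 1.09, *Pdlim2* at 1.56 ± 0.596 and *Csrp3* at 1.34 ± 0.579 RPKM. Neighbours in this order overlapped between libraries except *Pdlim4* and *Pdlim7*, *Ankrd1* and *Pdlim5*, and *Pdlim1* and *Pdlim3*. The order in KO quiescent cells differed by *Ankrd1* (53.0 ± 24.6 RPKM, SD, n = 4) standing before *Pdlim7* (37.9 ± 12.1), and these overlapped. *Ankrd1* also overlapped with *Pdlim4* there (92.2 ± 45.2 RPKM), and in KO replicate 1 it was the higher of the pair, at 87.2 against 32.2 RPKM.

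After culture the order was another. In WT activated cells *Ankrd1* stood first at 55.5 ± 3.71 RPKM (SD, n = 2), above *Ldb3* at 21.5 ± 10.4, *Pdlim7* at 21.1 ± 7.18, *Pdlim5* at 12.4 ± 2.26, *Pdlim3* at 11.8 ± 5.41 and *Pdlim4* at 8.36 ± 1.90 RPKM. *Pdlim1* at 6.96 ± 3.02 and *Xirp1* at 5.91 ± 0.127 RPKM came next. Neighbours there overlapped except *Ankrd1* and *Ldb3*, *Pdlim7* and *Pdlim5*, and *Xirp1* and *Csrp3*. In KO activated cells *Ankrd1* stood at 125 ± 54.6 RPKM (SD, n = 2), *Pdlim3* second at 59.6 ± 14.5, *Ldb3* at 26.9 ± 9.84, *Pdlim5* at 24.3 ± 5.67, *Pdlim7* at 18.3 ± 0.722 and *Xirp1* at 17.7 ± 0.978 RPKM, with *Pdlim4* at 3.42 ± 0.715. In that group *Ldb3* and *Pdlim5*, *Pdlim7* and *Xirp1*, and *Pdlim4* and *Csrp3* overlapped, and the other neighbours did not. *Csrp3* and *Pdlim2* closed the order in both activated groups, at 0.880 and 0.492 RPKM in WT and 3.02 and 0.289 RPKM in KO cells.

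**Figure D2:**
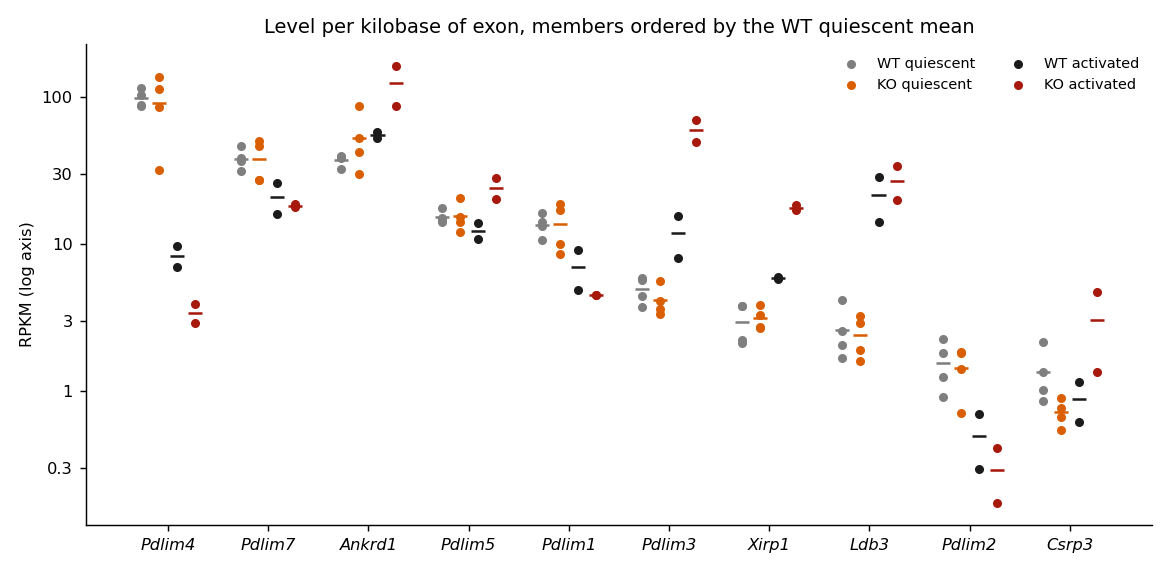
The level per kilobase of exon (RPKM, log axis) is plotted for each gene, with the genes ordered by their WT quiescent mean, a point for each library and a line at each group mean. *Pdlim4* falls from the first place in the quiescent groups to 3.42 RPKM in KO activated cells, and *Pdlim3* climbs from 4.16 to 59.6 RPKM between the KO groups.

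To ask how the same genes moved with activation, the 2 cultured WT libraries were compared with the 4 quiescent WT libraries, and separately the 2 cultured KO libraries with the 4 quiescent KO libraries. Those comparisons share no library with each other, but the activated libraries are also those of the contrast behind the choice of genes. In WT cells *Pdlim3* and *Ldb3* rose and *Pdlim4* fell. In KO cells *Pdlim3*, *Ldb3*, *Xirp1*, *Csrp3* and *Ankrd1* rose and *Pdlim1*, *Pdlim2*, *Pdlim4* and *Pdlim7* fell. Of the 10 genes, 2 passed higher and 1 lower in WT cells, where 9.65% and 16.5% of all genes tested did so. In KO cells 5 passed higher and 4 lower, against 11.1% and 18.5% of all genes. Without WT activated replicate 1, 6 genes passed in WT cells, 3 higher and 3 lower, without WT activated replicate 2 2 did, and DESeq2 on all libraries called 5. Without KO activated replicate 2, 6 genes passed in KO cells, and *Csrp3*, *Ankrd1* and *Pdlim7* were not among them. The RNA is from whole populations, in which fewer cells of a type and less RNA per cell cannot be told apart.

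By separation of the libraries alone, 4 genes lay wholly higher and 5 wholly lower in activated WT cells, with *Csrp3* overlapping, where 17.6% and 38.4% of all genes did so. In KO cells 4 lay wholly higher and 4 wholly lower, with *Pdlim5* and *Ankrd1* overlapping, where 18.3% and 36.1% of all genes did so. The median log2 fold change over all genes was -0.92 in WT and -0.96 in KO cells, and those of the 10 genes were -0.50 and 0.94. Near the median of all genes lay *Pdlim7*, at -0.86 in WT and -1.05 in KO cells, and *Pdlim1* in WT cells, at -0.94.

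The ALP subfamily moved in opposite directions. *Pdlim3* had 41.2 and 80.6 CPM in the WT activated libraries, both above the WT quiescent range of 19.2 to 30.1 CPM. Its log2 fold change was 1.25 (SE 0.30; adjusted p = 0.00327 by edgeR), or 0.76 with an adjusted p of 0.167 without WT activated replicate 2. In KO cells *Pdlim3* went from 17.2 to 28.6 CPM in quiescent to 254 and 360 CPM in activated libraries, a log2 fold change of 3.84 (SE 0.29; 14.3-fold; adjusted p = 2.65e-08 by edgeR). *Pdlim4*, the gene with the highest mean level per kilobase in both quiescent groups, had 24.8 and 18.0 CPM in WT and 7.45 and 10.0 CPM in KO activated libraries, far below every quiescent library of its genotype. It was 11.7-fold lower in WT cells (log2 fold change -3.55, SE 0.46; adjusted p = 8.84e-06 by edgeR) and 26.9-fold lower in KO cells (log2 fold change -4.75, SE 0.50; adjusted p = 7.58e-07 by edgeR).

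*Pdlim1* had 47.9 and 25.4 CPM in the WT and 23.6 and 23.7 CPM in the KO activated libraries, each under the quiescent range of its genotype. Its log2 fold change was -0.94 (SE 0.34) in WT cells, short of the fold required, and -1.60 (SE 0.36; adjusted p = 0.00174 by edgeR) in KO cells. *Pdlim2* was near the limit of counting in culture, with 3.10 and 1.31 CPM in WT and 0.771 and 1.83 CPM in KO activated libraries, the values of 19, 3, 3 and 8 counts. Its log2 fold change was -1.55 (SE 0.59; adjusted p = 0.0550 by edgeR) in WT cells and -2.29 (SE 0.64; adjusted p = 0.00974 by edgeR) in KO cells, or -1.82 and not past the thresholds without KO activated replicate 1.

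In the Enigma subfamily, *Ldb3*, whose product binds alpha-actinin at the Z-disc of striated muscle, had 86.1 and 176 CPM in the WT and 121 and 206 CPM in the KO activated libraries, against 9.77 to 25.3 CPM in quiescent libraries. It was 8.23-fold higher in WT cells (log2 fold change 3.04, SE 0.37; adjusted p = 3.77e-06 by edgeR) and 11.2-fold higher in KO cells (log2 fold change 3.48, SE 0.37; adjusted p = 7.58e-07 by edgeR). *Pdlim7* had 127 and 77.5 CPM in WT and 86.3 and 91.3 CPM in KO activated libraries. These lay under the quiescent ranges, and the log2 fold changes were -0.86 (SE 0.31) in WT cells, short of the fold required, and -1.05 (SE 0.31; adjusted p = 0.0134 by edgeR) in KO cells. The KO call for *Pdlim7* did not hold when KO quiescent replicate 3 or 4, or either KO activated library, was left out, and the smallest of these values was -0.88. *Pdlim5* had 95.6 and 124 CPM in WT and 180 and 251 CPM in KO activated libraries, with log2 fold changes of -0.32 (SE 0.26) and 0.65 (SE 0.25; adjusted p = 0.0541 by edgeR), neither of which passed.

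*Xirp1* had 33.98 and 35.03 CPM in the WT activated libraries, above all 4 quiescent ones, with a log2 fold change that came just short of 1 at 0.995 (SE 0.28; adjusted p = 0.0123 by edgeR). In KO cells it had 99.1 and 107 CPM, a log2 fold change of 2.49 (SE 0.27; adjusted p = 1.19e-06 by edgeR). *Csrp3* had 1.63 and 3.07 CPM in WT and 3.60 and 12.5 CPM in KO activated libraries, from 10, 7, 14 and 55 counts. Its log2 fold change was -0.68 (SE 0.65) in WT cells and 2.08 (SE 0.55; adjusted p = 0.00661 by edgeR) in KO cells, and 0.93 in KO cells without KO activated replicate 2, where the call was lost. *Ankrd1* had 153 and 168 CPM in WT and 250 and 473 CPM in KO activated libraries. Its log2 fold change was 0.56 (SE 0.33; adjusted p = 0.195 by edgeR) in WT cells and 1.24 (SE 0.32; adjusted p = 0.00594 by edgeR) in KO cells, where KO activated replicate 1 lay beside KO quiescent replicate 1. Without KO activated replicate 2 the KO value was 0.74, and *Ankrd1* did not pass.

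**Figure D3:**
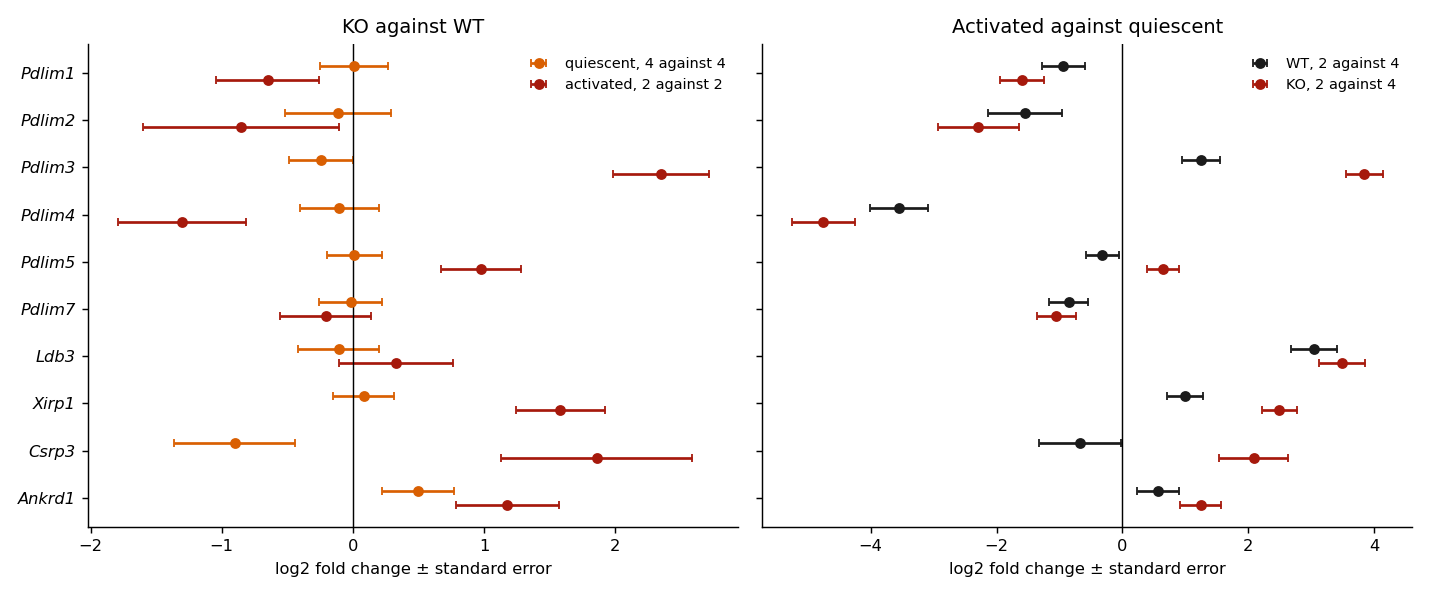
Log2 fold changes (points) with their standard errors (bars) are plotted for each gene, for KO against WT in quiescent and activated cells on the left and for activated against quiescent cells in each genotype on the right. On the right *Ldb3* and *Pdlim3* lie above 0 and *Pdlim4* lies below 0 in both genotypes, and on the left the activated value of *Pdlim3* is 2.35.

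The fibre markers, structural genes of adult muscle such as *Ckm* and *Acta1*, were higher in the same libraries. The 11 of 12 that could be tested rose in both genotypes, where 9.65% of all genes passed higher in WT and 11.1% in KO cells. Their median log2 fold changes were 4.46 in WT and 4.17 in KO cells, against -0.92 and -0.96 over all genes. The summed level of the 12 markers was 7863 and 17474 CPM in the WT activated libraries and 10455 and 19021 CPM in the KO activated libraries. *Ldb3* per 1000 CPM of fibre markers was 10.9 and 10.1 CPM in the WT and 11.6 and 10.9 CPM in the KO activated libraries, a spread of 1.15 times from lowest to highest, although *Ldb3* itself moved with the marker sum. Across the 8 quiescent libraries the same ratio ran from 15.7 to 33.3. *Pdlim3* per 1000 CPM of fibre markers was 5.24 and 4.61 in the WT and 24.3 and 18.9 in the KO activated libraries, and *Xirp1* 4.32 and 2.00 in the WT and 9.48 and 5.64 in the KO libraries. *Ankrd1* per 1000 CPM was 19.4 and 9.60 in WT and 23.95 and 24.87 in KO libraries. The part of the fibre RNA in the rise of *Ldb3* and *Pdlim3* was not tested.

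**Figure D4:**
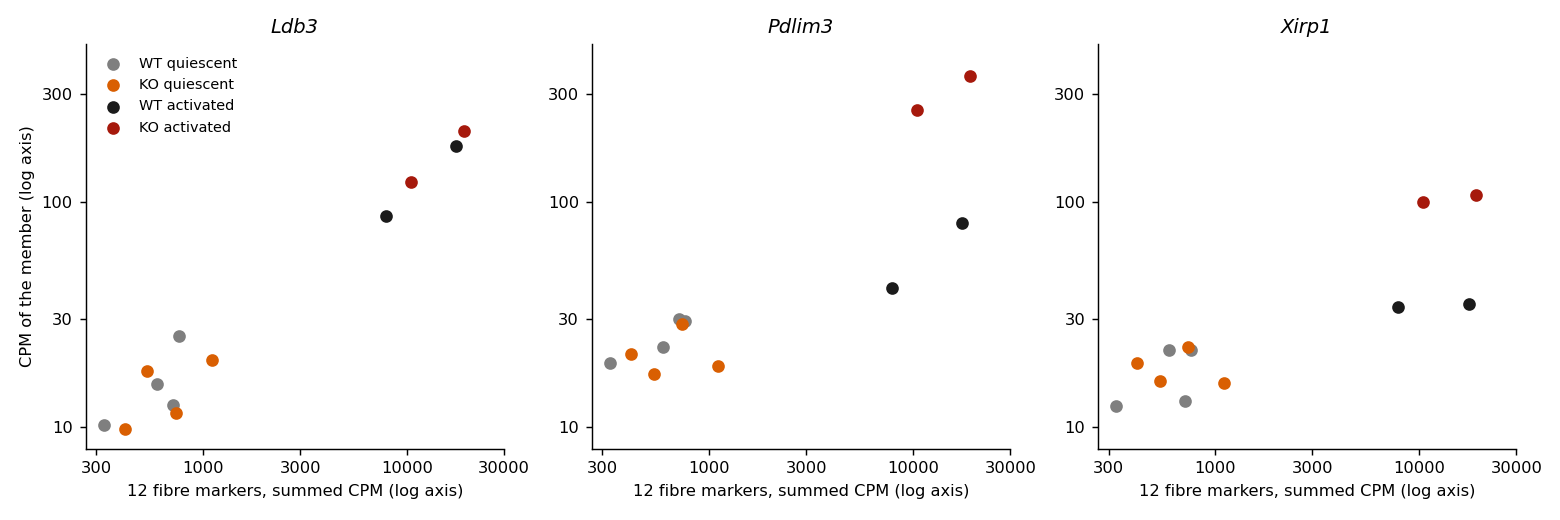
The level of *Ldb3*, *Pdlim3* and *Xirp1* (CPM, log axis) is plotted against the summed level of the 12 fibre markers (CPM, log axis), with a point for each of the 12 libraries. The 4 activated libraries lie along 1 line for *Ldb3*, and for *Pdlim3* and *Xirp1* the 2 KO activated libraries lie above the 2 WT activated ones at a like marker level.

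Other marker lists moved with activation too, in comparisons where 16.5% of all genes passed lower in WT and 18.5% in KO cells. The markers of smooth muscle cells and pericytes, which are rich in actin stress fibres, summed to 1444 to 2647 CPM in quiescent and 183 to 346 CPM in activated libraries, with 6 of 8 lower in WT and 7 of 8 in KO cells. The hematopoietic markers summed to 79.6 to 356 CPM in quiescent and 30.9 to 56.3 CPM in activated libraries, with 5 of 6 lower in WT and 6 of 6 in KO cells and *Cd52* at 0 in both WT activated libraries. The fibroadipogenic progenitor markers summed to 1195 to 1834 CPM in WT quiescent and 262 to 724 CPM in WT activated libraries, with 2 of 6 lower, and to 246 to 3188 and 333 to 551 CPM in the KO groups, with 2 of 6 lower and 1 higher. The endothelial markers summed to 478 to 1229 and 104 to 531 CPM in the WT groups and to 256 to 1337 and 99.9 to 351 CPM in the KO groups, with 3 of 6 lower in WT and 2 in KO cells. Of the 4 tendon markers 0 passed in WT cells and 1 was lower in KO cells. The part of these cells in the fall of *Pdlim4* and, in KO cells, of *Pdlim1* and *Pdlim7* was not tested. Of the 8 satellite cell markers, 6 fell in WT and 7 in KO cells.

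KO and WT cells after culture make the contrast that stood behind the choice of the genes, and its values are given without a test. The activated KO libraries carried *Pdlim3* at 254 and 360 CPM, against 41.2 and 80.6 CPM in the WT libraries, a log2 fold change of 2.35 (SE 0.37; 5.09-fold). *Xirp1* followed at 99.1 and 107 against 33.98 and 35.03 CPM, a log2 fold change of 1.58 (SE 0.34; 2.99-fold). *Ankrd1* (log2 fold change 1.18, SE 0.39), *Csrp3* (1.86, SE 0.73) and *Pdlim5* (0.98, SE 0.30) were also higher in both KO libraries than in both WT libraries. Without KO activated replicate 2 the values were 0.59 for *Ankrd1* and 0.62 for *Csrp3*, and that library held 55 *Csrp3* counts against 14 in the other KO activated library. *Pdlim4* (-1.30, SE 0.49) and *Pdlim1* (-0.65, SE 0.39) were lower in both, with *Pdlim1* at -0.20 without WT activated replicate 1 and -1.09 without WT activated replicate 2. *Ldb3* (0.33, SE 0.43), *Pdlim7* (-0.21, SE 0.34) and *Pdlim2* (-0.85, SE 0.75) overlapped between the genotypes.

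For reference, and as a description of values that were known when the genes were chosen, 1 of the 10, *Pdlim3*, lay past the thresholds of the other comparisons on the higher side, where 0.031% of all genes were, and 0 on the lower side, where 0.0194% of all genes were. Of the 10, 5 were wholly higher and 2 wholly lower without overlap, beside 15.2% and 9.5% of all genes. With WT activated replicate 1 left out *Pdlim3* had a log2 fold change of 1.83, and with KO activated replicate 2 left out 2.02, and it lay past the thresholds in neither case. The KO effect in activated cells minus that in quiescent cells was 2.59 (SE 0.44) for *Pdlim3*, 2.76 (SE 0.86) for *Csrp3* and 1.497 (SE 0.41) for *Xirp1* on the log2 scale, and that of *Csrp3* was 1.53 without KO activated replicate 2. For this difference 0 of all genes tested passed in edgeR (0%), with 1699 at an unadjusted p under 0.05, and DESeq2 called 45.

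Markers of early muscle differentiation, which appear as myoblasts exit the cell cycle and fuse, are described for the same contrast without a test. That contrast was known when the marker lists were chosen. Their sum was 80.2 and 83.6 CPM in the WT and 133 and 218 CPM in the KO activated libraries. The quiescent libraries held 72.0 to 301 CPM in WT and 101 to 186 CPM in KO cells. In activated KO cells 7 of 10 were wholly higher, beside 15.2% of all genes. The perinatal myosin *Myh8*, 1 of the 10, lay past the thresholds on the higher side, where 0.031% of all genes were. The paper lists *Myh8* among its genes changed in activated cells. Among those higher, *Myh8* had 12 counts in the WT activated libraries together, *Myh3* 11, *Mymk* 6 and *Mymx* 1. None of the 10 was at 0 in both libraries of a group. The fibre marker sums of the genotypes overlapped. Per 1000 CPM of early differentiation markers, *Pdlim3* was 513 and 963 CPM in the WT and 1909 and 1650 CPM in the KO activated libraries. *Xirp1* was 424 and 419 CPM in WT and 745 and 492 CPM in KO libraries. *Ankrd1* overlapped between the genotypes, at 1902 and 2005 CPM in WT and 1882 and 2169 CPM in KO libraries. *Csrp3* overlapped as well, at 20.4 and 36.6 against 27.0 and 57.5 CPM. The part of early differentiation in the values of *Pdlim3*, *Xirp1*, *Csrp3* and *Ankrd1* was not tested.

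The proteins with which the PDZ-LIM family shares the Z-disc were measured as a list of 22 structural and scaffold genes. In activated cells 16 of them rose and 5 fell in WT, and 16 rose and 5 fell in KO cells, with median log2 fold changes of 2.43 and 3.18. For this and the later lists, 9.65% of all genes passed higher and 16.5% lower in WT, and 11.1% and 18.5% in KO cells. The actin-binding *Xirp2*, a relative of *Xirp1*, rose by 6.50 in WT and 5.96 in KO cells on the log2 scale, and the calcineurin-binding *Myoz1* rose by 5.23 in WT and the alpha-actinin-binding *Myot* by 5.14 in KO cells. The sarcomeric alpha-actinin *Actn2*, a ligand of the PDZ domains in muscle, rose by 1.42 and 2.02. *Actn3*, also a sarcomeric alpha-actinin, rose by 3.43 in WT cells. In KO cells *Actn3* ran from 40.0 to 72.5 CPM in quiescent and from 289 to 515 CPM in activated libraries. Its activated means were 454 CPM in WT and 402 CPM in KO cells, against 23.0 and 39.9 CPM for *Actn2*. Filamin C, encoded by *Flnc*, had log2 fold changes of -3.87 and -3.96, and *Pgm5*, aciculin, of -3.91 in both genotypes. *Des*, desmin, passed in neither genotype, at -0.75 and -0.49. The list thus held genes on both sides, as the 10 genes did.

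Of the 46 genes in the 5 lists of partners and relatives, 0 passed between KO and WT in quiescent or activated cells by edgeR. Over all 25771 genes tested 0.0155% passed in quiescent and 0.0504% in activated cells, so the 0 does not set these lists apart. By the same test 0 and 4 of the 46 had an unadjusted p under 0.05, beside 448 and 2158 of all genes. DESeq2 called 0 of the 46 in either state. The 22 structural genes had median log2 fold changes of -0.03 in quiescent and 0.14 in activated cells. In activated cells the highest values were those of *Synpo2l* (1.28, SE 0.50) and *Smpx* (1.11, SE 0.65), and the lowest those of *Cryab* (-0.52, SE 0.59) and *Nebl* (-0.73, SE 0.60), with adjusted p of 0.469 and more by edgeR. In quiescent cells *Myoz1* (0.56, SE 0.39) and *Actn3* (0.30, SE 0.27) had the highest values and *Nebl* (-0.46, SE 0.31) and *Cryab* (-0.63, SE 0.41) the lowest.

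Of the 4 relatives of *Ankrd1* and *Csrp3*, the muscle ankyrin repeat genes *Ankrd23* and *Ankrd2* rose with activation, by 3.00 and 1.37 in WT and 2.57 and 2.28 in KO cells on the log2 scale. The LIM genes *Csrp1* and *Csrp2*, known from smooth muscle and other cells, fell in both genotypes, with log2 fold changes of -2.02 and -2.91 in WT and -2.87 and -3.17 in KO cells. Between KO and WT *Ankrd2* had the highest value in activated cells at 0.99 (SE 0.51). Of the 3 four-and-a-half LIM genes, 0 passed in WT cells, where *Fhl2* had 0.80 (SE 0.44), and 1 rose in KO cells, *Fhl1*, by 1.12.

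The nonmuscle alpha-actinins and focal adhesion proteins, the partners of *Pdlim1*, *Pdlim4* and *Pdlim7* outside the sarcomere, had 1 of 7 genes higher and 4 lower in WT, and 1 higher and 3 lower in KO activated cells. Of all genes, 9.65% passed higher and 16.5% lower in WT, and 11.1% and 18.5% in KO cells. The median log2 fold changes of the 7 genes were -1.16 and -0.99, near the -0.92 and -0.96 of all genes. The gene that rose was *Actn1*, nonmuscle alpha-actinin, by 1.03 and 1.68 on the log2 scale. The adhesion protein gene *Vcl* fell, with log2 fold changes of -3.98 and -3.47, as did *Palld*, which encodes the actin cross-linker palladin, at -2.11 and -2.03. Between KO and WT *Actn1* had the highest activated value of the 7, 0.53 (SE 0.29).

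*Ankrd1* was set beside 10 other targets and partners of YAP and TEAD. With activation the LIM gene *Ajuba* rose in WT and KO cells, by 1.79 and 2.16, and *Ccn1*, a matricellular target, fell in WT cells at -1.53. In KO cells 3 of the 10 fell, beside 18.5% of all genes, among them *Ccn2* at -2.15 and *Wwtr1*, which encodes TAZ, at -1.54. In activated cells the KO against WT values of *Ccn2* and *Ccn1*, the best known targets, were -1.83 (SE 0.66) and 0.49 (SE 0.41), and both genes overlapped between the genotypes.

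**Figure D5:**
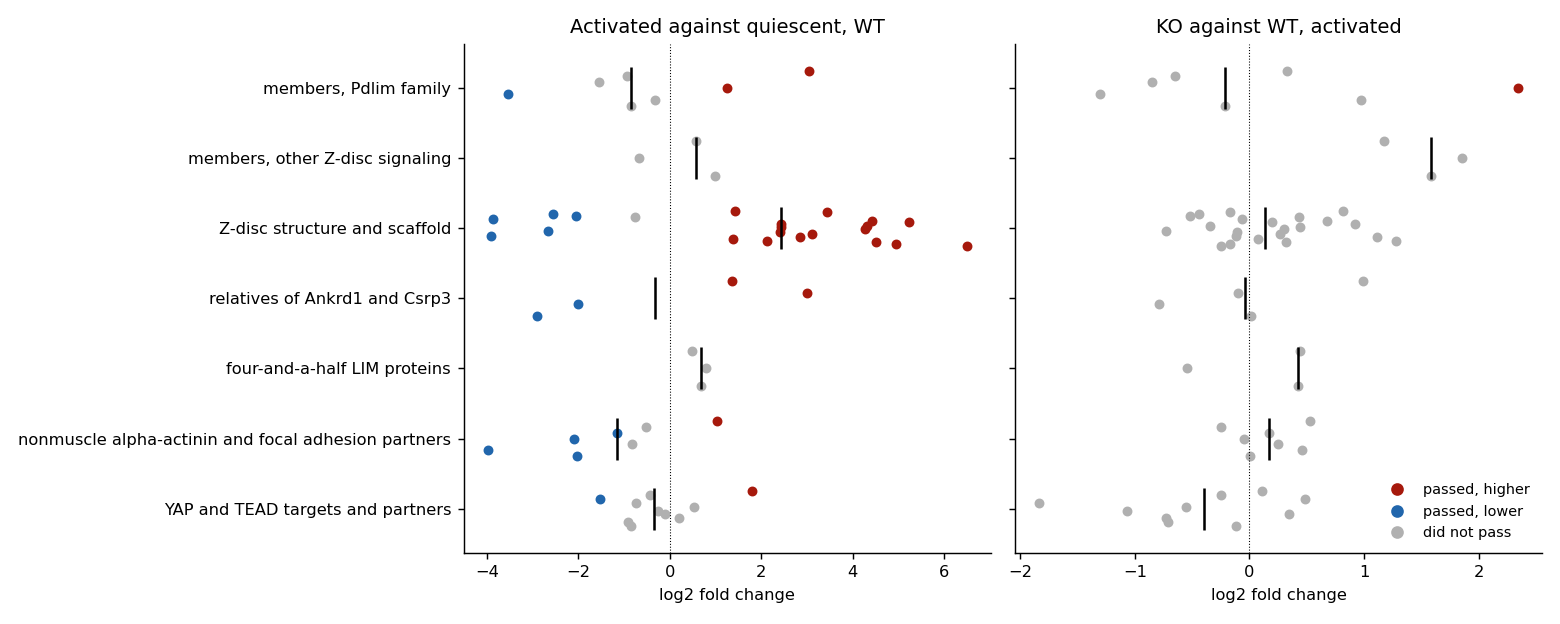
Log2 fold changes are plotted for each gene of 7 lists, for activated against quiescent WT cells on the left and for KO against WT activated cells on the right, with a black line at the list's median and colour for genes past the thresholds. On the left 16 of 22 Z-disc structure genes lie past them on the higher side and 5 on the lower, and on the right *Pdlim3* is the gene of these lists that lies past them. For the 10 genes the right side is a description without a test.

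Over the 12 libraries, the genes whose log2 CPM followed that of *Pdlim3* most closely among 12862 genes were *Sbk1* (Pearson r = 0.964, Spearman rho = 0.923), *Ramp1* (0.964 and 0.874), *Cyp20a1* (0.958 and 0.797), *Xirp1* (0.956 and 0.804) and *Med28* (0.953 and 0.874). For *Ankrd1* they were *Capza1-ps1* (0.922 and 0.944), *Acot2* (0.915 and 0.888), *Klf15* (0.915 and 0.846), *Acsl1* (0.896 and 0.867) and *Zfp715* (0.892 and 0.853). These correlations span groups that differ in state and share library and depth, and they are given as a description.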

How the data were processed

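RNA of sorted cells was made into polyA libraries, and the authors trimmed the reads with Trim Galore 0.6.0, mapped them to GRCm38 with STAR 2.7.2a and assigned them to GENCODE genes with Rsubread, per the submitters' processing notes and the methods. How strand and multiply mapped reads were handled is not given in the sources used here. The authors deposited raw counts per gene and library. The authors also deposited 1 FPKM value per gene and group, which was set beside the RPKM computed here. The 10 genes and all gene lists were chosen with earlier results of these data known.

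Genes were filtered by filterByExpr, leaving 25771 genes and all 10 of these, and libraries were scaled by TMM. A negative binomial model with 4 group means was fitted over all 12 libraries by edgeR 4.0.16 in R 4.3.3 and tested by the quasi-likelihood test with Benjamini-Hochberg adjustment over all genes. A gene passed at an adjusted p under 0.05, a log2 fold change beyond 1 and, in the compared groups, an average normalized count over 10. A prior count of 2 entered the log2 CPM. The method was tested on simulated data. RPKM is TMM-scaled CPM per kilobase of the union of exons. From each other list, the genes called were counted, and the 2 highest and 2 lowest log2 fold changes per comparison could be named. *Actn2*, *Des*, *Myh8*, *Myh3*, *Mymk*, *Mymx* and, for activation, *Actn3* were named after their values were seen. The 5 genes most correlated with *Pdlim3* and *Ankrd1* were taken from genes with an average log2 CPM over 1. The alternatives were DESeq2 size factors, no filter, the adjusted p alone, DESeq2 1.42.0, the replicate number as a block, edgeR fitted to the compared groups, and each library left out. The mapping of libraries to conditions came from the labels.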

Additional observations from a re-analysis of the deposited data

Results flagged for a closer look

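*Ankrd1* in WT quiescent replicate 3 stood apart from its group, at 93.3 CPM against 112 to 115 CPM in the other 3 libraries, by Dixon's test of the lowest value. It was 1 of 20 groups of 4 libraries examined, and chance marks about 1 in 20 such groups.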

How the results depend on the processing

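In quiescent KO against WT cells 0 of the 10 genes passed in every alternative run. In activated KO against WT cells, where counts only describe values known at the choice of the genes, the count was 2 without a filter on low counts and 2 by DESeq2 (*Xirp1* joining *Pdlim3*), 0 by edgeR on the compared groups, and 0 to 1 with a library left out. With activation in WT cells it was 6 on the adjusted p alone, 5 by DESeq2, 5 on the compared groups, 5 with the replicate block, and 2 to 6 with a library left out, the 2 without WT activated replicate 2 and the 6 without WT activated replicate 1. With activation in KO cells it was 6 to 9 with a library left out. For the difference between states it was 1 (*Pdlim3*) without a filter, 1 by DESeq2, and 0 to 1 with a library left out. With the replicate block the difference gave 1, with *Pdlim3* at 2.64, and activation in KO cells gave 6, without *Pdlim7* (-0.56), *Csrp3* (1.75) and *Ankrd1* (0.84). With the block the count stayed at 0 in quiescent and at 1 in activated KO against WT cells. Correlations of quiescent libraries with the same number were 0.240, 0.165, -0.266 and 0.587, and -0.0705 in the activated pairs, so the numbers were not taken to pair the libraries, and not every library correlated best with its own number. Quiescent WT and KO libraries of the same number had similar total counts (17532019 and 17238391, 12775593 and 13075208, 23058947 and 22897189, 22785815 and 23717013), and a shared batch was not tested. With the block the log2 fold change of *Csrp3* in quiescent KO against WT cells was -0.83 (edgeR adjusted p = 1), against -0.90 without it. Signs turned for changes near 0 in quiescent KO against WT: *Pdlim7* 0.0031 without a filter, and *Pdlim1* -0.059 and *Pdlim5* -0.010 with the replicate block. With a library left out, quiescent values crossing 0 ran over -0.19 to 0.18 (*Pdlim1*), -0.30 to 0.13 (*Pdlim2*), -0.36 to 0.18 (*Pdlim4*), -0.15 to 0.12 (*Pdlim5*), -0.18 to 0.12 (*Pdlim7*), -0.28 to 0.21 (*Ldb3*) and -0.0499 to 0.23 (*Xirp1*), activated values over -0.59 to 0.10 (*Pdlim7*) and -0.20 to 0.85 (*Ldb3*), and differences over -1.56 to 0.0102 (*Pdlim2*), -0.58 to 0.12 (*Pdlim7*) and -0.0915 to 0.96 (*Ldb3*). The cause was not tested. Where an arm had 1 library left, it was taken to vary like the other groups. Over all genes, quiescent KO against WT gave 4 calls, and 47 without a filter. Activated KO against WT gave 13 (61.5% higher), and 332 (38.3%) without a filter, 145 (40.0%) by DESeq2, 8 (4 of them higher) with DESeq2 size factors and 3 on the compared groups, of which 3 were higher. The difference gave 0, and 170 without a filter, 45 by DESeq2 and 3 with the replicate block. The deposited FPKM lay within 1 SD of the RPKM in 37 of 40 group values, and the exceptions were *Xirp1* in both activated groups (5.66 in WT and 16.2 in KO) and *Pdlim1* in KO activated cells (4.41). *Pdlim2* and *Csrp3*, with 3 to 55 counts in activated libraries, are limited by depth.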
